A study of Homo sapiens with 6 samples.

Results

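The ligands and receptors of the TNF superfamilies were examined in human ERRAS cells held in mitosis, with and without induced Ras. Members were the genes whose symbol is TNFSF or TNFRSF followed by a number and at most one letter, and 32 of the 63009 genes read from the expression table met this rule, 11 ligands and 21 receptors. Expression was given in FPKM, fragment counts scaled to transcript length and to the size of the library. Averaged over the 6 libraries, 1 FPKM or more was reached by 13 members, 3 ligands and 10 receptors, which are described in full, and 19 members lay under it.

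ERRAS cells are IMR90 lung fibroblasts, a primary human cell strain, that were transduced with a retrovirus encoding H-RasV12 fused to the oestrogen receptor, so that tamoxifen switches the oncogene on. RNA-seq was carried out on mitotic cells from 3 control (uninduced) and 3 Ras-induced cultures, and the question was how active Ras alters gene expression within mitosis. Ras-induced cells had been given 100 nM tamoxifen by the label and had expressed RasV12 for 4 days, while control cells carried the same construct without induction. Cells of both groups were grown at 3% oxygen in 20% fetal calf serum with G418, were arrested with 1 µM dimethylenastron (DME), which blocks the spindle motor Eg5, and were collected as detached cells with a mitotic index over 90%. The methods name 4-hydroxytamoxifen at another dose, so the dose is uncertain. According to the methods, the experiment was independently repeated. The groups therefore differ in tamoxifen as well as in Ras activity, which cannot be told apart, and the data come from a single cell strain and from cells that had rounded up and come loose.

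TNF superfamily ligands are mostly trimeric proteins of the cell surface, many of which can be shed, and their receptors are recognised by repeated cysteine-rich domains. Receptors with an intracellular death domain recruit adaptors such as FADD and TRADD and can activate caspase-8, whereas others bind TRAF proteins and signal to NF-kappaB and the JNK kinases. Decoy receptors bind ligand without passing on a full death signal, because they are secreted or lack a working death domain. In fibroblasts these genes are known for their parts in inflammation, matrix remodelling and sensitivity to apoptosis.

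The labelled cell type was checked against marker genes. All 9 fibroblast markers were above 1 FPKM, and vimentin (VIM) was the most abundant, at 2216, 2157 and 2074 FPKM in the control libraries and 1924, 2564 and 2257 FPKM in the Ras-induced libraries. Of these markers 4 were lower in Ras-induced cells by limma, COL1A2, THY1, LUM and DCN, where 5.67% of all tested genes were lower, and the summed level of the list was 5580, 6544 and 6542 FPKM in control libraries against 4058, 5327 and 3962 FPKM in Ras-induced libraries. Of 8 leukocyte markers 7 were under 1 FPKM, with CD3E, MS4A1 and ITGAM listed at 0 in every library and PTPRC at 0.0140 FPKM or less. The most abundant leukocyte marker was CD68, a lysosomal protein, at 25.2 to 35.6 FPKM, and the summed level of that list was 27.8, 26.0 and 31.3 FPKM in control libraries and 31.1, 34.3 and 36.3 FPKM in Ras-induced libraries.

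Endothelial markers were under 1 FPKM apart from the angiopoietin receptor TEK. PECAM1 was listed at 0 throughout, CDH5, VWF and KDR were under 1 FPKM, and the summed level of the 5 endothelial markers, nearly all of it TEK, was 16.5, 14.5 and 15.0 FPKM in control libraries and 4.90, 5.41 and 4.81 FPKM in Ras-induced libraries (log2 fold change of TEK -1.45, adjusted p = 0.00126 from limma). Of the 5 epithelial markers 3 were tested and none was called by limma, with 0 at an unadjusted p under 0.05. These were KRT5, KRT14 and KRT19. CDH1 and EPCAM averaged under 1 FPKM and were not tested, though EPCAM had groups without overlap, at 1.05, 0.880 and 1.80 FPKM in control and 0.272, 0.167 and 0.424 FPKM in Ras-induced libraries. The summed level of the list was 21.95, 35.1 and 19.1 FPKM in control and 21.3, 23.6 and 23.5 FPKM in Ras-induced libraries. All 8 mitotic markers were present in both groups, 3 of them (PLK1, BUB1 and KIF20A) at a lower level after induction against 5.67% of all tested genes, and their sum was 1716, 1721 and 1795 FPKM in control and 1386, 1525 and 1502 FPKM in Ras-induced libraries. Whether the marker lists that moved with induction had a part in the results on TNF superfamily genes was not tested.

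Transcripts known to follow ERK signalling were read as a check of the labels. Of 10 such genes 7 were higher and 1, FOSL1, was lower in Ras-induced cells; without DUSP4, which reached 1 FPKM through the Ras-induced libraries alone, 6 of 9 were higher. Among all tested genes 11.0% were higher and 5.67% lower. DUSP6, an ERK phosphatase, measured 3.31, 1.92 and 2.23 FPKM in control libraries and 39.8, 21.2 and 37.2 FPKM in Ras-induced libraries (log2 fold change 3.24, adjusted p = 0.00198 from limma). The libraries were of like depth. Judged from the smallest steps between low FPKM values, they held 0.953 and 1.16 (control 2 and 3) and 1.13, 0.841 and 0.966 (Ras-induced 1 to 3) times the reads of control 1. No library stood apart from its group, since distances on the log2 scale were 82.0 to 87.7 within groups and 96.9 to 102.5 between them.

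Among the 13 described members, 5 rose in Ras-induced mitotic cells and none fell. These were the ligand TNFSF15 and the receptors TNFRSF10D, TNFRSF11B, TNFRSF6B and TNFRSF19. With limma on log2(FPKM + 1) and adjustment over all 13993 genes at or above 1 FPKM, 16.7% of genes were called, 11.0% higher (1543 genes) and 5.67% lower (793 genes). Libraries of the groups did not overlap for 7 of the 13 members, against 39.9% of all tested genes. The median log2 fold change was 0.38 for the members and 0.10 for all tested genes.

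These counts describe the members that were measurable and are no test of the family. TNFSF15 reached the threshold of 1 FPKM through the Ras-induced libraries alone and so had to differ; without it, 4 of 12 members were called, with a median of 0.27. The number of called members was 3 without control 1, 2 without control 2 and 2 without any single Ras-induced library, TNFRSF10D and TNFSF15 being called each time. Calls among all genes numbered 978 and 876 without control 1 or 2, and 1042, 1443 and 860 without Ras-induced 1, 2 or 3. Scaling moved the balance of calls among all genes, to 1044 higher and 1109 lower after quantile normalization and to 921 higher and 1101 lower after upper-quartile scaling, where the median of all genes was 0.01 and 0.0047. The members' median was then 0.29 and 0.27, and 4 members were called, all higher.

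**Figure D1:**
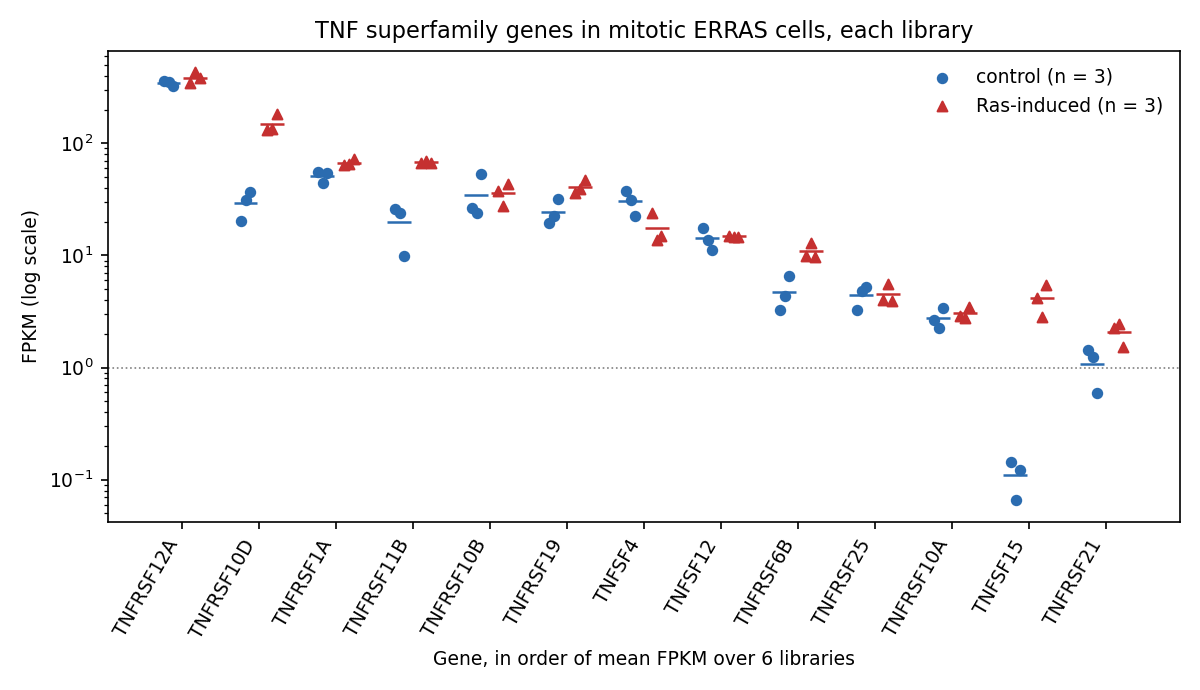
Level of the 13 described members in each library, in FPKM on a log axis, with 3 control libraries as circles, 3 Ras-induced libraries as triangles and group means as bars. TNFRSF12A lies highest in every library, between 324 and 431 FPKM, and the groups stand farthest apart for TNFRSF10D and TNFSF15.

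Ligands were few and of moderate level. The ligand that passed the test was TNFSF15 (TL1A), a ligand of the death receptor TNFRSF25 known for costimulating T cells and for restraining endothelial growth. TNFSF15 measured 0.144, 0.0655 and 0.122 FPKM in the control libraries and 4.16, 2.84 and 5.42 FPKM in the Ras-induced libraries. Transcripts were thus near the floor in each control library and present in each Ras-induced library, with no overlap. The mean went from 0.111 ± 0.0406 to 4.14 ± 1.29 FPKM (SD, n = 3), a 37.4-fold ratio of means, giving 2.18 ± 0.23 (SE) as log2 fold change (limma adjusted p = 0.00346). As the filter at 1 FPKM was passed through the Ras-induced libraries alone, the p with no filter on low genes, 0.0132 after adjustment, is given beside it. Adding 1 FPKM before taking logarithms understates the change of so low a transcript, which was 4.30 on the log2 scale with 0.1 added. In bulk RNA, more cells with the transcript and more transcript per cell cannot be told apart, here and for every gene that follows.

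Promoter sequence was set beside these values for the ligand that rose and for TNFSF4, the ligand with the lower mean after induction. The windows run from 250 bases before to 50 bases after the start site, from RefSeq on build GRCh38.p14, and are written 5′ to 3′ on the strand of the gene. They were searched on both strands for the AP-1 site TGANTCA, which reads alike on either strand, because AP-1 lies downstream of Ras and ERK, and for the NF-kappaB consensus; the motifs share no required stretch. Capitals mark the AP-1 letters, which begin at -120 from the start site of TNFSF15; neither motif occurs in the TNFSF4 window. The TNFSF15 window lies at chr9:114792481-114792780 and that of TNFSF4 at chr1:173205483-173205782, both on the minus strand.
TNFSF15: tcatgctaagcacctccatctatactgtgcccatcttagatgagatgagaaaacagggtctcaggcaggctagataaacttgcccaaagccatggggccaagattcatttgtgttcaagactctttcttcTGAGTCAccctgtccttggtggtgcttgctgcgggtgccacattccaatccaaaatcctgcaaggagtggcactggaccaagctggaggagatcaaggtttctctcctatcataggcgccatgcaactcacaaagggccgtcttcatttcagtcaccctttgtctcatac
TNFSF4: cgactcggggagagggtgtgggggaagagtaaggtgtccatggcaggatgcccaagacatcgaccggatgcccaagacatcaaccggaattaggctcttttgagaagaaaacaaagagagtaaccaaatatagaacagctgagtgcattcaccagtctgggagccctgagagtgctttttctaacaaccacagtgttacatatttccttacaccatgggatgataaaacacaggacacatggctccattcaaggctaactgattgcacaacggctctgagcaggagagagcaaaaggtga

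Over all promoters of the table, 2707 of 35116 (7.71%) held the AP-1 letters and 2075 (5.91%) those of NF-kappaB. Promoters were used for 7 of the 13 described members, 8 windows in all. AP-1 letters stood in that of TNFSF15 and in no other of these windows, and an NF-kappaB match stood in that of TNFRSF25, starting at +36 from the start site. No window was used for TNFRSF10D, TNFRSF11B, TNFRSF12A, TNFRSF10A, TNFRSF10B or TNFSF12, so these members were not searched. Among tested receptors with other symbols, none of them called, AP-1 letters stood in 1 of 3 FAS windows (-242) and at 1 site that lies in both of the overlapping EDA2R windows (+28 and -163), an NF-kappaB match in another FAS window (-157), and neither in those of LTBR and RELT. A match is a description of the letters and not of binding.

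TNFSF4 (OX40 ligand), another costimulator of T cells, was the most abundant ligand of control cells. Its level was 37.8, 31.0 and 22.5 FPKM in control libraries and 23.7, 13.9 and 15.1 FPKM in Ras-induced libraries. The highest Ras-induced library lay above the lowest control library, so the groups overlapped, and the difference did not pass the test (log2 fold change -0.77, standard error 0.25, adjusted p = 0.0813 from limma). With a block for the column numbers the adjusted p was 0.0271 from limma, but whether these numbers pair the libraries is not known.

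TNFSF12 (TWEAK), the ligand of TNFRSF12A, did not differ beyond the spread of its libraries. It measured 17.6, 13.8 and 11.3 FPKM in control libraries and 14.8, 14.8 and 14.8 FPKM in Ras-induced libraries. The Ras-induced values fell inside the control range (log2 fold change 0.07, 95% interval -0.29 to 0.44, adjusted p = 0.777 from limma), and the sign turned to -0.03 after either scaling and to -0.07 without control 3. TNFSF12 overlaps the readthrough gene TNFSF12-TNFSF13, which was listed at 0.000844 to 1.01 FPKM, so that a few of its fragments may have been assigned there.

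The remaining 8 ligands named TNFSF were under 1 FPKM. The best expressed was TNFSF13B (BAFF), a B cell survival factor, with a mean of 0.431 FPKM. TNFSF10 (TRAIL), the ligand of the death receptors described next, measured 0.279, 0.225 and 0.293 FPKM in control libraries and 0.0617, 0.0411 and 0.108 FPKM in Ras-induced libraries. These groups did not overlap, but at a minimum mean of 0.1 FPKM the difference did not pass the test (log2 fold change -0.24, adjusted p = 0.116 from limma), and it did with no minimum (adjusted p = 0.0356). TNFSF18 (GITR ligand) also had groups without overlap, at 0.0867 to 0.136 FPKM in control and 0.164 to 0.184 FPKM in Ras-induced libraries (adjusted p = 0.547 at a minimum mean of 0.1 FPKM and 0.216 with none, from limma). TNFSF11 (RANK ligand) was listed at 0 in every library.

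Ligands of the superfamily that carry other symbols were no more abundant. TNF itself, LTA, LTB, CD40LG, FASLG, CD70 and EDA were all under 1 FPKM, 7 of 7, and none entered the test. TNF was listed at 0 in 4 of the 6 libraries and at 0.0413 and 0.0424 FPKM in the others. The highest value of any of the 7 was 0.171 FPKM, for CD70 in Ras-induced 3, and LTA was at 0 throughout. The table lists TNF, LTA and LTB in 8, 7 and 8 rows; the row with the highest mean was read, and the others were at 0 in all 6 libraries.

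Among the receptors for TRAIL the decoy TNFRSF10D rose. The group holds a pair of death-inducing receptors, TNFRSF10A (DR4) and TNFRSF10B (DR5), and a pair of decoys, TNFRSF10C, which is anchored by lipid and has no intracellular part, and TNFRSF10D, whose death domain is truncated. TNFRSF10D measured 20.3, 31.3 and 36.6 FPKM in control libraries and 132.9, 133.1 and 181.1 FPKM in Ras-induced libraries. Every Ras-induced library was above 3 times the highest control library. The mean rose from 29.4 ± 8.28 to 149.0 ± 27.8 FPKM (SD, n = 3), a 5.07-fold ratio, or 2.33 ± 0.23 (SE) as log2 fold change (limma adjusted p = 0.0029).

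The signalling receptors showed no such difference. TNFRSF10B measured 26.6, 24.04 and 52.8 FPKM in control libraries and 37.8, 27.9 and 43.1 FPKM in Ras-induced libraries. Control 3 was the highest of all 6 libraries and the groups overlapped (log2 fold change 0.14, 95% interval -0.60 to 0.88, adjusted p = 0.790 from limma), and the sign turned without control 1 (-0.00086) or control 2 (-0.07). TNFRSF10A was lower, at 2.68, 2.24 and 3.43 FPKM in control and 2.90, 2.77 and 3.47 FPKM in Ras-induced libraries. Its groups overlapped as well (log2 fold change 0.11, adjusted p = 0.692 from limma), with a value of -0.0006 without control 2. TNFRSF10C was under 1 FPKM in every library, between 0.142 and 0.684 FPKM, and its mean was 0.455 FPKM in control and 0.296 FPKM in Ras-induced cells (log2 fold change -0.16, adjusted p = 0.554 from limma at a minimum mean of 0.1 FPKM).

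Shares of the TRAIL receptor transcripts restate the rise of TNFRSF10D and add no further result. TNFRSF10D accounted for 40.4, 54.1 and 39.2% of the summed FPKM of the 4 receptors in control libraries and for 76.4, 81.2 and 79.4% in Ras-induced libraries. The groups lay apart by 34.4 percentage points, 44.6 ± 8.30% against 79.0 ± 2.45% (SD, n = 3), and by 31.7 to 39.2 points with any single library left out. The FPKM of TNFRSF10D over that of TNFRSF10B was 0.765, 1.30 and 0.692 in control libraries and 3.52, 4.77 and 4.204 in Ras-induced libraries. The sum of TNFRSF10A and TNFRSF10B was 37.3 ± 16.5 FPKM in control and 39.3 ± 8.04 FPKM in Ras-induced cells (n = 3, two-sided exact permutation p = 0.8). With so few libraries the smallest p this permutation can give is 0.1, so it cannot decide whether the sums differ. The share of TNFRSF10D and its ratio to TNFRSF10B, whose groups did not overlap, gave that smallest value in the same permutation. These shares were chosen after the values had been seen. Because the receptors are close paralogs, fragments common to them may have been divided between genes, which was not tested. With TNFRSF10C counted together with TNFRSF10D the difference in share was 33.8 points. TNFRSF10C, at 0.142 to 0.684 FPKM, was too low to move it much, and fragments shared with TNFRSF10A or TNFRSF10B are not addressed by this count.

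**Figure D2:**
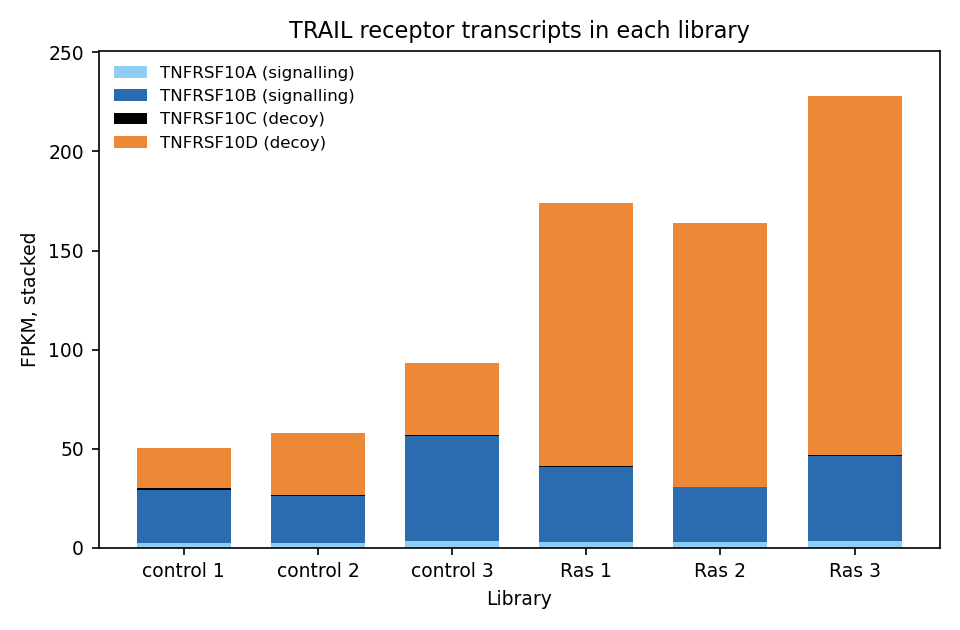
TRAIL receptor transcripts in each library, stacked in FPKM from 0, with the signalling receptors in blue and the decoys in black and orange. The orange TNFRSF10D segment spans 20.3 to 36.6 FPKM in control libraries and 132.9 to 181.1 FPKM in Ras-induced libraries, while the blue segments overlap between groups.

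TNFRSF11B (osteoprotegerin), a soluble receptor that binds RANK ligand and TRAIL, was also higher after induction. Its level was 26.2, 23.8 and 9.99 FPKM in control libraries and 66.9, 70.0 and 66.5 FPKM in Ras-induced libraries. The Ras-induced libraries lay close together and well above each control library, of which control 3 was the lowest. The mean rose from 20.0 ± 8.77 to 67.8 ± 1.91 FPKM (SD, n = 3), 3.39-fold (log2 fold change 1.82, standard error 0.33, adjusted p = 0.0155 from limma). The call was lost without control 2 (adjusted p = 0.0520), without Ras-induced 1, 2 or 3 (0.0687, 0.0614 and 0.0682) and with no filter on low genes (0.0507), while the log2 fold change stayed between 1.40 and 2.06.

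TNFRSF6B (DcR3), a soluble decoy for FAS ligand, TNFSF14 and TNFSF15, was less abundant. It measured 3.25, 4.38 and 6.54 FPKM in control libraries and 9.87, 13.1 and 9.70 FPKM in Ras-induced libraries. All Ras-induced values were above all control values, and the mean rose from 4.73 ± 1.67 to 10.9 ± 1.89 FPKM (SD, n = 3), 2.30-fold (log2 fold change 1.08, standard error 0.23, adjusted p = 0.0244 from limma). The adjusted p was 0.0735 and 0.0992 without control 1 or 2, 0.0770, 0.0803 and 0.0776 without Ras-induced 1, 2 or 3, and 0.0698 with no filter on low genes, each above 0.05. The gene, at chr20:62328005-62330037 on GRCh37, overlaps the readthrough gene RTEL1-TNFRSF6B (2.72, 2.45 and 2.64 FPKM in control and 4.22, 3.65 and 3.39 FPKM in Ras-induced libraries, log2 fold change 0.40, adjusted p = 0.0819 from limma) and, on the other strand, ARFRP1 (log2 fold change 0.22, adjusted p = 0.354). The libraries did not keep strand, so fragments of the overlap cannot be told apart and the level of TNFRSF6B is uncertain to that extent.

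Death-domain receptors outside the TRAIL group did not pass the test. TNFRSF1A, the widely expressed TNF receptor, measured 55.3, 44.4 and 54.1 FPKM in control libraries and 63.5, 64.8 and 72.1 FPKM in Ras-induced libraries. Each Ras-induced library was above each control library, but by a small margin (log2 fold change 0.38, 95% interval 0.12 to 0.64, adjusted p = 0.0582 from limma), and the adjusted p was 0.0491 where genes under 5 FPKM were left out. TNFRSF21 (DR6), close to the threshold for description, measured 1.42, 1.24 and 0.590 FPKM in control and 2.25, 2.43 and 1.52 FPKM in Ras-induced libraries, without overlap (log2 fold change 0.57, adjusted p = 0.146 from limma). Its log2 fold change was 0.92 with 0.1 added in place of 1 FPKM and 0.38 without control 3, and it was called in neither. TNFRSF25 (DR3), the receptor of TNFSF15, measured 3.29, 4.81 and 5.25 FPKM in control and 4.04, 5.61 and 3.90 FPKM in Ras-induced libraries. The groups overlapped (log2 fold change 0.02, 95% interval -0.44 to 0.49, adjusted p = 0.950 from limma), and the sign was turned by quantile (-0.06) and upper-quartile scaling (-0.07) and without control 1 (-0.14) or Ras-induced 2 (-0.11).

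FAS, a death receptor of the same superfamily under another symbol, had a lower mean after induction. It measured 19.2, 17.1 and 27.4 FPKM in control libraries and 11.5, 8.77 and 14.8 FPKM in Ras-induced libraries. No Ras-induced library reached the lowest control library, yet the adjusted p was 0.0550 (log2 fold change -0.81, standard error 0.23, from limma). The adjusted p was under the threshold with 0.1 added in place of 1 FPKM (0.0445), with genes under 5 FPKM left out (0.0383) and after quantile normalization (0.0450). It was also under it with a block for the column numbers (0.0113 from limma), but whether these numbers pair the libraries is not known. TNFRSF6B over FAS, a decoy and a receptor for the same ligand, was 0.169, 0.256 and 0.239 by FPKM in control libraries and 0.858, 1.49 and 0.658 in Ras-induced libraries, a ratio chosen after the values had been seen, which restates the values of the single genes.

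Of the 8 receptors with other symbols 4 were tested by limma and 0 were called, with 2 at an unadjusted p under 0.05, FAS and LTBR, the 2 of these 4 whose groups did not overlap (16.7% of all tested genes were called and 39.9% had no overlap). LTBR, the lymphotoxin beta receptor, which signals through TRAF proteins, measured 65.6, 66.3 and 54.4 FPKM in control and 75.5, 90.3 and 73.8 FPKM in Ras-induced libraries, without overlap (log2 fold change 0.36, adjusted p = 0.0837 from limma). EDA2R and RELT gave log2 fold changes of 0.02 and 0.24 with overlapping groups (adjusted p = 0.924 and 0.295); that of EDA2R turned to -0.06 and -0.07 after quantile and upper-quartile scaling, -0.07 without control 2 and -0.05 without Ras-induced 1. CD40, CD27, NGFR and EDAR were under 1 FPKM and not tested; groups did not overlap for CD27, at 0.0706, 0 and 0 FPKM in control and 0.0938, 0.168 and 0.0727 FPKM in Ras-induced libraries.

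TNFRSF19 (TROY), a receptor without a death domain that binds TRAF proteins, rose by a smaller amount. It measured 19.6, 22.4 and 32.0 FPKM in control libraries and 36.3, 39.0 and 46.7 FPKM in Ras-induced libraries. The groups did not overlap, although control 3 came within a few FPKM of Ras-induced 1, and the mean went from 24.7 ± 6.53 to 40.7 ± 5.36 FPKM (SD, n = 3; log2 fold change 0.72, standard error 0.19, adjusted p = 0.0469 from limma). The call was lost without control 1 or 2 (adjusted p = 0.129 and 0.152), without Ras-induced 1, 2 or 3 (0.0991, 0.110 and 0.153), after quantile (0.0978) or upper-quartile scaling (0.0970), without a trend (0.0627) and with lower filters on low genes (0.0606 at 0.1 FPKM and 0.114 with none).

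TNFRSF12A (Fn14), the receptor of TNFSF12 and a known growth factor response gene, was the most abundant member in every library. It measured 359, 349.7 and 324 FPKM in control libraries and 344, 431 and 379 FPKM in Ras-induced libraries, with overlap (log2 fold change 0.16, 95% interval -0.09 to 0.40, adjusted p = 0.332 from limma). The log2 fold change was 0.0452 after upper-quartile scaling, 0.0701 without Ras-induced 2 and 0.233 without Ras-induced 1. Its share of the summed FPKM of the 10 described receptors was 69.3, 68.8 and 61.7% in control libraries and 49.1, 54.6 and 47.0% in Ras-induced libraries. The sum of the receptors went from 517 ± 8.73 FPKM to 766 ± 57.4 FPKM (SD, n = 3), and without TNFRSF12A from 173 ± 24.7 to 381 ± 40.7 FPKM. The sums and the share contain the receptors called above, mainly TNFRSF10D and TNFRSF11B, and were chosen after the values had been seen, so they add no further result.

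**Figure D3:**
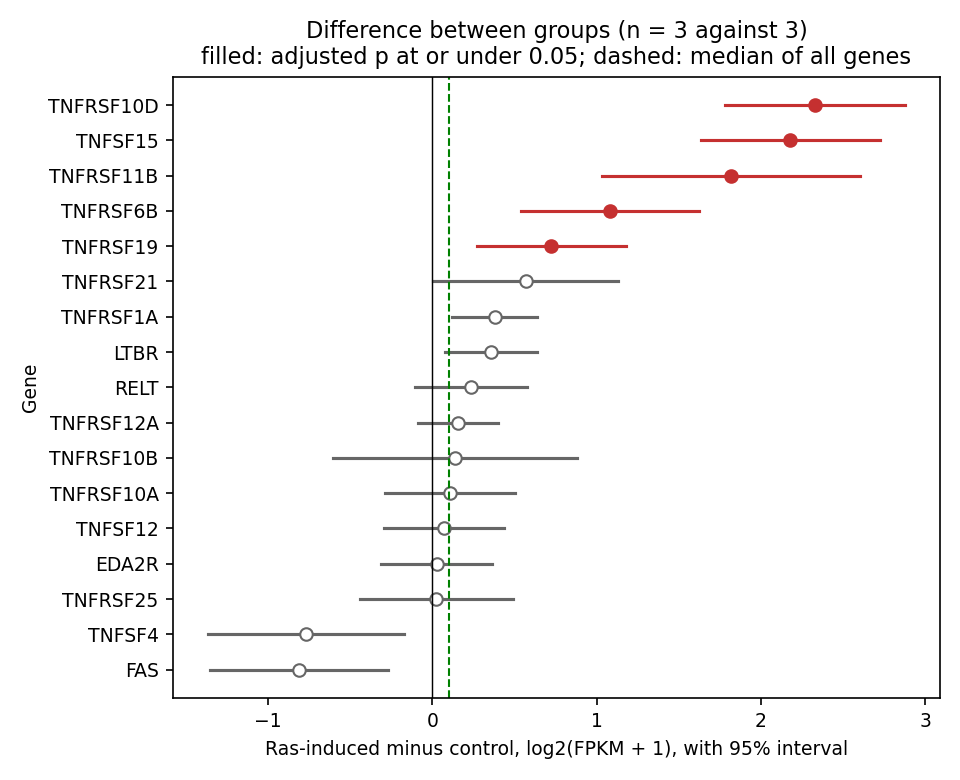
Difference between Ras-induced and control cells on the log2(FPKM + 1) scale, with 95% intervals, for the 13 described members and 4 receptors with other symbols (3 against 3 libraries). Filled red points are the 5 members past the test, from 0.72 for TNFRSF19 to 2.33 for TNFRSF10D; the dashed line is the median of all tested genes, 0.10.

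In order of mean level in control cells, TNFRSF12A was followed by TNFRSF1A, TNFRSF10B, TNFSF4, TNFRSF10D, TNFRSF19, TNFRSF11B, TNFSF12, TNFRSF6B, TNFRSF25, TNFRSF10A, TNFRSF21 and TNFSF15. In these cells TNFRSF10D (29.4 ± 8.28 FPKM), TNFSF4 (30.4 ± 7.67 FPKM) and TNFRSF10B (34.5 ± 15.9 FPKM) lay within the spread of their libraries of each other (SD, n = 3). In Ras-induced cells TNFRSF10D was second to TNFRSF12A in each library, and TNFRSF1A (66.8 ± 4.65 FPKM) and TNFRSF11B (67.8 ± 1.91 FPKM) did not differ beyond their spread.

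The 3 members just above the threshold of 1 FPKM were TNFRSF21, TNFSF15 and TNFRSF10A, with means of 1.58, 2.12 and 2.91 FPKM, and the 3 just under it were TNFRSF1B (0.710), TNFRSF14 (0.494) and TNFSF13B (0.431 FPKM). TNFRSF1B, the inducible TNF receptor of immune and endothelial cells, was the only one of the 19 to reach 1 FPKM in any library, at 1.23 FPKM in Ras-induced 1. Of the 19, 9 were detected but stayed under 0.3 FPKM everywhere, and 5 were listed at 0 in all libraries. Those 5 were TNFSF11, TNFRSF4 (the receptor of TNFSF4), TNFRSF8, TNFRSF13B and TNFRSF13C, genes known mainly from lymphocytes and bone. At levels this low a difference would have been hard to detect.

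Most adaptors and effectors of the pathway did not pass the test. Of 30 listed genes 29 were tested, 1 was higher and 3 were lower, and 11 had groups without overlap, against 11.0% higher, 5.67% lower and 39.9% without overlap among all tested genes. The median log2 fold change was 0.01. The count depended on scaling, with 6 of 29 called after quantile normalization (1 higher and 5 lower) against 2153 of 13993 genes in all, and 7 of 29 after upper-quartile scaling (1 higher and 6 lower) against 2022 of 13993. The genes that fell were BIRC3, TRAF1 and TRAF2. BIRC3 (cIAP2), a ubiquitin ligase of TNF receptor complexes, measured 11.1, 10.4 and 17.7 FPKM in control libraries and 3.61, 0.995 and 1.86 FPKM in Ras-induced libraries. All Ras-induced values lay far under the control values (log2 fold change -2.21, standard error 0.34, adjusted p = 0.00949 from limma), and without Ras-induced 3 the adjusted p was 0.0513.

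TRAF1, an adaptor that binds TRAF2 and the cIAP proteins, fell as well. It measured 2.97, 2.80 and 3.59 FPKM in control and 0.975, 0.692 and 1.29 FPKM in Ras-induced libraries (log2 fold change -1.06, adjusted p = 0.0133 from limma). TRAF1 averaged under 1 FPKM in Ras-induced cells and so passed the filter through the control libraries alone; with no filter on low genes the adjusted p was 0.0383, and without TRAF1 3 of 28 adaptors were called. TRAF2, the adaptor that recruits the cIAP proteins to receptors, went from 19.9, 21.4 and 20.2 FPKM to 15.2, 16.9 and 15.4 FPKM (log2 fold change -0.35, adjusted p = 0.034 from limma). The groups did not overlap for either gene, but TRAF2 missed the threshold without control 1, 2 or 3 (adjusted p = 0.0823, 0.114 and 0.0600) and without Ras-induced 1 or 3 (0.0937 and 0.112). TANK, a TRAF-binding scaffold of the TBK1 kinase, was the adaptor that rose, from 30.1, 28.0 and 27.0 FPKM to 47.1, 45.4 and 45.6 FPKM (log2 fold change 0.68, standard error 0.07, adjusted p = 0.00384 from limma). Without Ras-induced 3, 2 adaptors were called in place of 4.

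Subunits and inhibitors of NF-kappaB, the factor that many of these receptors activate, included 2 lower genes and no higher one among 11 tested of 13. The median log2 fold change was -0.22, and 8 genes had groups without overlap. Among all tested genes 5.67% were lower, 16.7% were called and 39.9% had no overlap. RELB, a subunit of the alternative NF-kappaB pathway, measured 24.05, 24.9 and 28.0 FPKM in control and 18.7, 16.0 and 17.9 FPKM in Ras-induced libraries (log2 fold change -0.52, adjusted p = 0.0167 from limma). NFKB2, its partner, measured 28.6, 25.8 and 36.1 FPKM against 21.2, 19.0 and 20.1 FPKM (log2 fold change -0.55, adjusted p = 0.0354 from limma). Both sets of Ras-induced values lay under all control values.

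The call of RELB was lost without control 2 or Ras-induced 3 (adjusted p = 0.0641 and 0.0631). That of NFKB2 was lost without control 1 or 2 (0.0933 and 0.0544), without Ras-induced 1, 2 or 3 (0.0872, 0.1002 and 0.113), with no filter on low genes (0.0807) and without a trend (0.0502). The number called was thus 1 without control 1, Ras-induced 1 or Ras-induced 2 and 0 without control 2 or Ras-induced 3, and it was 4 after quantile normalization, 2 after upper-quartile scaling and 3 with 0.1 added in place of 1 FPKM. Under these last 3 settings 2153 (1109 lower), 2022 (1101 lower) and 2447 (833 lower) of all 13993 tested genes were called. TNFAIP3 (A20), a target and inhibitor of NF-kappaB, measured 3.16, 4.14 and 5.58 FPKM in control and 2.45, 1.32 and 2.12 FPKM in Ras-induced libraries and did not pass (log2 fold change -0.83, adjusted p = 0.0542 from limma). The list did not move in 1 direction. NFKBIA, BCL3, NFKBIB and TNIP2 had higher means and were not called (log2 fold change 0.41, 0.28, 0.23 and 0.21, adjusted p = 0.476, 0.180, 0.211 and 0.109 from limma). Groups did not overlap for NFKBIB and TNIP2. The other tested genes of the list had negative log2 fold changes.

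The promoter of BIRC3 is shown because it is a well-known NF-kappaB target and had the largest fall among the adaptors. The RefSeq window on build GRCh38.p14, chr11:102317234-102317533 on the plus strand, is written 5′ to 3′, and capitals mark the matches to the NF-kappaB consensus, searched on both strands. Their first bases lie at -199 and -135 from the start site. TNFAIP3 also held 2 matches, at -67 and -55, and the 3 windows of TRAF1 held none, against 5.91% of all promoters with at least 1. BIRC3 was chosen as a known target and TNFAIP3 after its values were seen, so the matches are no test. Whether NF-kappaB had a part in the falls was not tested.
BIRC3: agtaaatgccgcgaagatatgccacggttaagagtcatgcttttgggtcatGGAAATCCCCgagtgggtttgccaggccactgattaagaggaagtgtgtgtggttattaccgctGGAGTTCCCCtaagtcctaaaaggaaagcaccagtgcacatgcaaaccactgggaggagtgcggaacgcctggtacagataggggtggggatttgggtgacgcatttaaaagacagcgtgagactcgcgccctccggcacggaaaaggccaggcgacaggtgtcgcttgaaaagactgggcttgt

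Genes for shedding of ligands and receptors included 2 higher genes and no lower one among 6 tested, with a median log2 fold change of 0.24 and no overlap for 2, against 11.0% higher and 39.9% without overlap among all tested genes. The list is too short for its count to describe more than these genes. RHBDF1 (iRhom1), a cofactor that matures the sheddase ADAM17, measured 6.11, 6.55 and 5.87 FPKM in control and 17.9, 9.52 and 12.3 FPKM in Ras-induced libraries (log2 fold change 0.95, adjusted p = 0.0283 from limma). FURIN, a protease that processes several ligands and ADAM17, measured 47.6, 48.4 and 38.5 FPKM against 64.7, 66.3 and 56.8 FPKM (log2 fold change 0.48, adjusted p = 0.0365 from limma). The groups did not overlap for either. ADAM17 itself gave a log2 fold change of -0.11 (adjusted p = 0.541) and ADAM10 one of -0.26 (adjusted p = 0.154).

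Both calls among the shedding genes depended on which libraries were used. FURIN had an adjusted p of 0.0796, 0.0764 and 0.0530 without control 1, 2 or 3 and of 0.111, 0.1001 and 0.0682 without Ras-induced 1, 2 or 3, 0.0538 and 0.0584 after quantile and upper-quartile scaling, 0.0557 without a trend and 0.0800 with no filter on low genes. RHBDF1 had 0.0972, 0.0959 and 0.0857 without control 1, 2 or 3, 0.0516 and 0.0971 without Ras-induced 1 or 3, and 0.0772 with no filter, and was called without Ras-induced 2. The number called was 1 without Ras-induced 2 (RHBDF1) and 1 without control 3 (TIMP3, an inhibitor of ADAM17, adjusted p = 0.0135), and 0 without control 1, control 2, Ras-induced 1 or Ras-induced 3.

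Genes named after TNF but outside both superfamilies were read in the same way. Of 14 listed TNFAIP and C1QTNF genes 10 were tested, 1 was higher and 3 were lower, 8 had groups without overlap, and the median log2 fold change was -0.66, against 11.0% higher, 5.67% lower, 39.9% without overlap and a median of 0.10 among all tested genes. TNFAIP6 (TSG-6), a hyaluronan-binding protein secreted in inflammation, measured 1.04, 0.886 and 1.82 FPKM in control libraries and 4.51, 6.04 and 7.22 FPKM in Ras-induced libraries (log2 fold change 1.63, standard error 0.22, adjusted p = 0.00709 from limma). C1QTNF2, a secreted protein with a C1q domain of the TNF fold, went from 5.97, 5.13 and 3.15 FPKM to 0.540, 0.850 and 0.513 FPKM (log2 fold change -1.79, adjusted p = 0.00602 from limma). Neither gene had overlapping groups. C1QTNF2 was under 1 FPKM in every Ras-induced library, so it passed the filter through the control libraries alone and had to differ. With no filter its adjusted p was 0.0238, and without it 3 of 9 genes were called, 1 higher and 2 lower, with a median of -0.49.

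Its relatives C1QTNF5 and C1QTNF6 fell too. C1QTNF5, which shares a transcription unit with MFRP so that its fragments may be divided, measured 19.5, 19.3 and 6.62 FPKM in control and 2.39, 2.73 and 2.12 FPKM in Ras-induced libraries (log2 fold change -2.11, adjusted p = 0.0154 from limma). C1QTNF6 measured 4.48, 5.43 and 4.32 FPKM against 1.62, 2.42 and 1.51 FPKM (log2 fold change -1.02, adjusted p = 0.0125 from limma). The calls of C1QTNF5 were lost without control 1 or 2 (0.0657 and 0.0726), without Ras-induced 1, 2 or 3 (0.0694, 0.0550 and 0.0722) and with no filter (0.0507), and those of C1QTNF6 without control 2 (0.0550) and Ras-induced 1 or 3 (0.0510 and 0.0527). In this list 2 genes were called without control 2, Ras-induced 1 or Ras-induced 3, and 8 after quantile or upper-quartile scaling, 1 higher and 7 lower. Among all 13993 tested genes, 1044 were higher and 1109 lower after quantile normalization, and 921 higher and 1101 lower after upper-quartile scaling. The main test had 1543 higher and 793 lower.

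**Figure D4:**
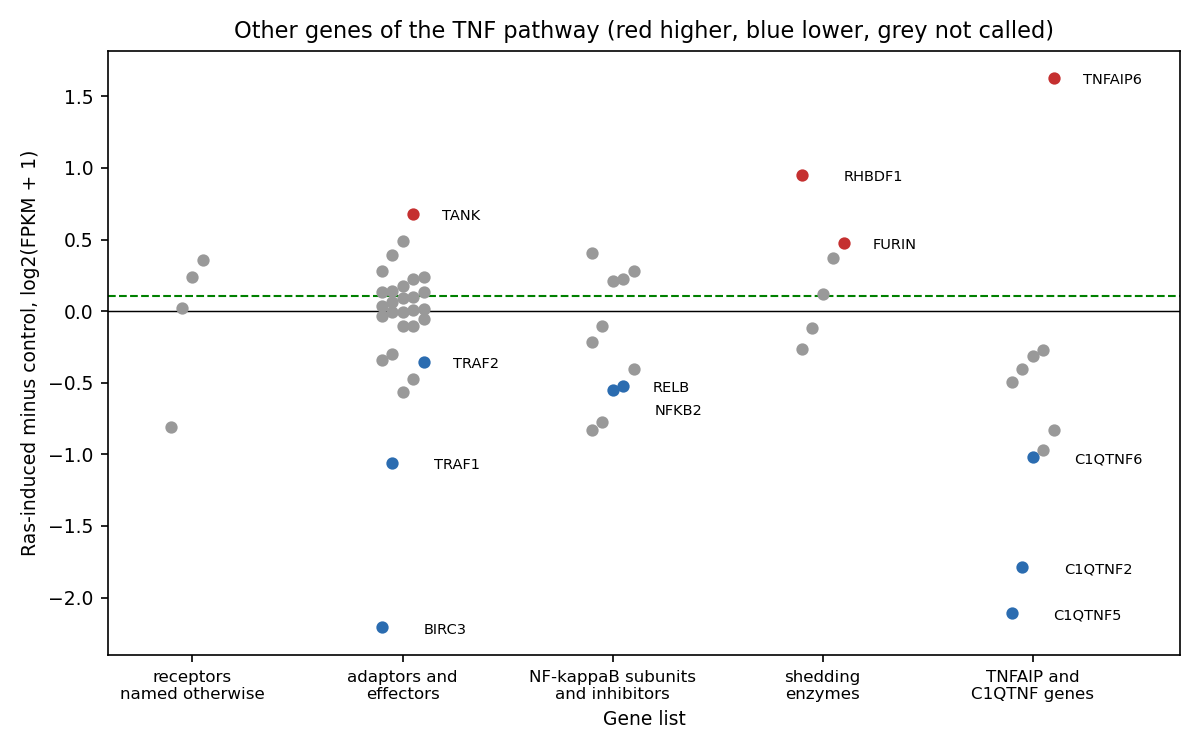
Difference between Ras-induced and control cells, on the log2(FPKM + 1) scale, for each tested gene of 5 lists; red points are higher and blue points lower by the test (3 against 3 libraries), and the dashed line is the median of all tested genes. BIRC3 lies lowest at -2.21 and TNFAIP6 highest at 1.63, while the receptors with other symbols hold no called gene.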

How the data were processed

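Poly(A) RNA of 6 libraries was sequenced in read pairs without strand. The authors computed FPKM with Cufflinks after reads were trimmed with Trim Galore 0.3.0 and aligned with TopHat2 to hg19 (Ensembl 73), and deposited a table whose columns name group and number, not sample. A further 18 unnamed columns and 120 genes with more than 6 values were not used. The deposited cuffdiff comparison (group FPKM, log2 fold change, test statistic, p-value, q-value) was not used. FPKM gives no read counts, so exact depth is unknown. Limma 3.58.1 (R 4.3.3) was run on log2(FPKM + 1) of genes averaging 1 FPKM or more (eBayes with trend, two-sided, no replicate block), with Benjamini-Hochberg adjustment over 13993 genes and a threshold of 0.05; the code was tested on simulated data. Single values were compared by exact permutation. Alternatives changed the pseudocount, filter, scaling, trend, block, threshold and libraries. Members and lists were chosen with earlier results of these data known. Named were the described members, the ligands and receptors with other symbols and, of each other list, the called genes where 6 or fewer. TNFAIP3, NFKBIA, BCL3, NFKBIB, TNIP2, ADAM10, ADAM17 and TIMP3 were named after their values were seen. Gene positions are from GENCODE 44 on GRCh37, promoters from RefSeq on GRCh38.p14. Protein properties were not analysed here.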

Additional observations from a re-analysis of the deposited data

How the results depend on the processing

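Over 396 gene results under the alternatives, 315 kept direction and side of the threshold, 61 lost the call, 6 gained it and 14 changed sign; of 17 called genes named, 6 (TNFRSF10D, TNFSF15, TRAF1, TANK, C1QTNF2 and TNFAIP6) were called under each alternative of pseudocount, filter, scaling, trend, block and libraries in which they were tested; with a log2 difference of 1 or more also required TANK (0.68) was not called. TNFSF15, TRAF1 and C1QTNF2 averaged under 1 FPKM in 1 group and passed the filter through the other. The causes were not tested. Signs changed in uncalled genes with values near 0. Under quantile and upper-quartile scaling TNFSF12 gave -0.0294 and -0.0322, TNFRSF25 -0.0562 and -0.0683, and EDA2R -0.0626 and -0.0652. With each library left out TNFSF12 gave -0.0738 to 0.225, TNFRSF25 -0.141 to 0.131, EDA2R -0.0746 to 0.0914, TNFRSF10B -0.0711 to 0.481 and TNFRSF10A -0.000601 to 0.226.

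Members called numbered 3 with no filter (2 higher and TNFSF10 lower) and 2 to 5 with each library left out; their median was 0.29 under quantile and 0.27 under upper-quartile scaling, and 0.28 to 0.44 with each library left out. Receptors with other symbols had 1 call, lower, with a pseudocount of 0.1, a filter of 5 FPKM, quantile normalization or the replicate block. Adaptors had 6 calls under quantile and 7 under upper-quartile scaling, 2 with a log2 difference of 1 or more in size also required, and 2 to 4 with each library left out. NF-kappaB genes had 1 call with no filter, 4 under quantile normalization, 1 without a trend, 0 with the fold required and 0 to 2 with each library left out. Shedding genes had 0 with no filter, 1 under quantile, 1 under upper-quartile scaling, 1 without a trend, 0 with the fold required and 0 to 1 with each library left out. TNFAIP and C1QTNF genes had 7 with a pseudocount of 0.1, 1 with a filter of 5 FPKM, 8 under quantile, 8 under upper-quartile scaling and 2 to 5 with each library left out. All genes had 1518 with no filter, 548 with the fold required and 860 to 1872 with each library left out, with fewer libraries tested.

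Whether the numbers in the columns pair the libraries is not known. Deviations from the group means of same-numbered libraries correlated at -0.00266, 0.0433 and 0.0481, which shows no pairing. With 3 libraries in each group these values cannot exclude it. With the replicate block 6 members were called, 5 higher and 1 lower (TNFSF4, adjusted p = 0.0271 from limma), as was FAS (0.0113), and 2310 genes in all.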
